A study of Homo sapiens with 4 samples.

Results

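The zinc finger genes examined here are the protein-coding genes of chromosome 19 whose RefSeq symbol (GRCh38) is ZNF followed by a number. The rule found 250 of the 19974 protein-coding genes of chromosomes 1 to 22 and X. It uses symbols and positions and no measured value. Among them are 4 symbols with a hyphen: ZNF559-ZNF177, ZNF816-ZNF321P and ZNF765-ZNF761 are read-through genes, and ZNF470-DT carries the suffix of a divergent transcript. Genes were scored by peaks of BAF45D, the PHD finger protein encoded by DPF2, which belongs to the chromatin remodelling complex known as BAF. BAF45D was mapped by CUT&Tag, in which an antibody brings a transposase to the DNA beside its target.

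There were 2 libraries of spinal cord neural stem cells, NSC1 and NSC2, and 2 of human embryonic stem cells, ESC1 and ESC2. All came from H9, an established line of embryonic stem cells, with 100000 cells per assay and no genetic change named in the labels. The NSC were made by 10 days of induction with LDN-193189 (100 nM), SB431542 (10 µM), CHIR-99021 (4 µM), FGF2 and FGF8 (100 ng/ml each) and DAPT (10 µM). Maintenance medium with SB-431542 (2 µM), CHIR-99021 (3 µM) and Hh-Ag 1.5 (200 nM) followed for 5 subpassages, and then medium with FGF2 and EGF (20 ng/ml each). The ESC were kept on Matrigel in mTeSR1. The labels do not say whether libraries of a cell type came from separate cultures, so the spread between them may be technical. A control with an untargeted antibody was not analysed here.

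Genes of this family encode proteins whose fingers read DNA, and many of them carry a KRAB domain. That domain recruits TRIM28, which in turn brings the histone methyltransferase SETDB1 and HP1 proteins, and the best known targets are transposable elements. The genes arose largely by tandem duplication, which left dense clusters of related copies along chromosome 19. Since copies share sequence and neighbours can share a peak, the genes are not independent of each other.

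The promoter windows that the results return to are printed here from RefSeq (GRCh38.p14), 5′ to 3′ on the strand of the gene, from 250 bases before a listed transcript start to 50 after it. Capitals mark CCGGAAG or its reverse complement CTTCCGG, letters known as a core of ETS factor motifs, and a window without capitals holds neither. ZNF414, at chr19:8514118-8514417 (minus strand), is shown because it had the strongest gene-end peaks on average of the members with gene-end peaks in all 4 libraries. The NSC1 and NSC2 peaks overlap this window. The ESC1 peak (chr19:8513625-8513898) and the ESC2 peak (chr19:8513576-8513958) lie downstream of it.
ZNF414: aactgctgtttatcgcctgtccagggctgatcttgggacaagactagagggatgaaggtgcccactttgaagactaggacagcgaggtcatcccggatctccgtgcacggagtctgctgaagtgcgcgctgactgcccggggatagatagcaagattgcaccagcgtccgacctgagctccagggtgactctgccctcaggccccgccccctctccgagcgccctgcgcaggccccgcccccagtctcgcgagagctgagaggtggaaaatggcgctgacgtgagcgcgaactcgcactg
ZNF93, at chr19:19900696-19900995 (plus strand), and ZNF91, at chr19:23395422-23395721 (minus strand), are shown as CpG-poor windows of the most repetitive cluster. Their longest identical run on the same strand is 24 bases. The match in ZNF91 begins 24 bases before the start.
ZNF93: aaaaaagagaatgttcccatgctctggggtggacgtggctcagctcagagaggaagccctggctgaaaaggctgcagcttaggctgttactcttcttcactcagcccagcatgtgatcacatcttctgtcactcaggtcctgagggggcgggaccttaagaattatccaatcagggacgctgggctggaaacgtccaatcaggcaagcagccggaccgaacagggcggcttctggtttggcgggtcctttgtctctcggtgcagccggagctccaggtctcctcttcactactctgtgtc
ZNF91: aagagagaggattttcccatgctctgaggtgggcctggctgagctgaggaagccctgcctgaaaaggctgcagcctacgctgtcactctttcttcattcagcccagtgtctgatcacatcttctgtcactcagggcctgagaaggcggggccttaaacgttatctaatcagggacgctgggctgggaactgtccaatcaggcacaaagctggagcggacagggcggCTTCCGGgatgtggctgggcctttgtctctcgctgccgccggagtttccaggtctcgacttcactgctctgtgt
ZNF587B, at chr19:57830049-57830348 (plus strand), is shown as the single member with gene-end peaks in both ESC libraries and neither NSC library. Its match begins 30 bases before the start.
ZNF587B: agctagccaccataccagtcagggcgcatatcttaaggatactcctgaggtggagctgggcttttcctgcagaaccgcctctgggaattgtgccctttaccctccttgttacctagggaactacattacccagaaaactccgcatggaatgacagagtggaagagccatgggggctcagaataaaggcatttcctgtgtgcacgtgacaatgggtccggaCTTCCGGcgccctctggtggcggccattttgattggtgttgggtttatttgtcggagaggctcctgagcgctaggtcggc
ZNF497, at chr19:58362702-58363001 (minus strand), and ZNF667, at chr19:56477296-56477595 (minus strand), are shown as CpG-rich windows with peaks in both NSC libraries and neither ESC library.
ZNF497: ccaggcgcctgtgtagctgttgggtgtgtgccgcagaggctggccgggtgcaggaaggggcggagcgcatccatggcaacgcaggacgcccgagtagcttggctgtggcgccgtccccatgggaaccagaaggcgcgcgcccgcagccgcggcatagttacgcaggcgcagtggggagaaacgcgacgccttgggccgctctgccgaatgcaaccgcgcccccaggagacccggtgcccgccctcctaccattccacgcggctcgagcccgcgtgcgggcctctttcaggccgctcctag
ZNF667: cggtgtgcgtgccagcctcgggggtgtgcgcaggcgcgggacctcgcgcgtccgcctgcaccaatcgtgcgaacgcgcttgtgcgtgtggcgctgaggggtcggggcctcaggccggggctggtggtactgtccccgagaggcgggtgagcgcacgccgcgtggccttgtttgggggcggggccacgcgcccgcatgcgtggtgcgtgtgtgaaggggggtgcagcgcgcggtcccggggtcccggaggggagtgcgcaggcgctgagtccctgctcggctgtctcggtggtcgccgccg
ZNF331, at chr19:53520764-53521063 (plus strand), is shown because its strongest peak in each library lay at this alternative start inside the gene. None lay at the gene's ends, and NSC2 and ESC2 also had weaker peaks elsewhere in the gene.
ZNF331: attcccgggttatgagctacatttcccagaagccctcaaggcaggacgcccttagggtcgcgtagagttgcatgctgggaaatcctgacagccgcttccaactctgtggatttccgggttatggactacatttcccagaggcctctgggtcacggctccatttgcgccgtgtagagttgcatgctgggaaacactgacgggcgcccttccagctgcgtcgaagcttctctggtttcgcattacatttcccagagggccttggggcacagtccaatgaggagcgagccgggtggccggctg
The 7 windows differ widely in CpG content. ZNF93 holds 10 CpG dinucleotides, ZNF91 and ZNF587B 11 each, ZNF331 17, ZNF414 22, ZNF497 34 and ZNF667 42.

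The lists differed in length and depth before any gene was scored. They held 29783 peaks in NSC1, 24669 in NSC2, 4204 in ESC1 and 12533 in ESC2, from 5566407, 5377831, 20734829 and 18953543 tags. The deeper ESC libraries thus gave the shorter lists, and ESC1 stood apart from ESC2. Absence of a peak means only that a library's signal stayed under the caller's threshold. Of marker genes, 3 of 6 neural stem cell genes (NES among them) had gene-end peaks in each NSC library and 0 in each ESC library. Of 5 spinal cord genes, 4 had one in each NSC library and 1 in each ESC library. In the order NSC1, NSC2, ESC1 and ESC2, which is kept below, pluripotency genes were called in 1, 1, 1 and 3 of 7, and POU5F1 and NANOG had none in any library. Glia genes had none, neuron genes 1, 0, 0 and 1 of 3, and mesoderm and endoderm genes 1, 0, 0 and 0 of 5. A peak is occupancy and not expression, so these counts describe the labels only in part. Over all protein-coding genes the shares with a gene-end peak were 42.8%, 38.1%, 6.67% and 22.8%, and nothing is read from lists this short.

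A member was called when a peak lay within 1 kb of either gene end. BAF45D peaks were found at the ends of 120 members in NSC1 (48.0%), 104 in NSC2 (41.6%), 18 in ESC1 (7.2%) and 96 in ESC2 (38.4%). Over all protein-coding genes the shares called were 42.8% in NSC1, 38.1% in NSC2, 6.67% in ESC1 and 22.8% in ESC2. The members were therefore close to the background in ESC1, a few percentage points above it in both NSC libraries and furthest above it in ESC2. The Wilson interval at 95%, which covers counting error only, ran from 32.6% to 44.6% in ESC2 and from 41.9% to 54.2% in NSC1. The other 1201 genes of chromosome 19 had 40.4%, 35.9%, 10.6% and 25.7% called in the same order of libraries. The 267 ZNF genes of other chromosomes had 52.8%, 44.9%, 3.37% and 25.5%.

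**Figure D1:**
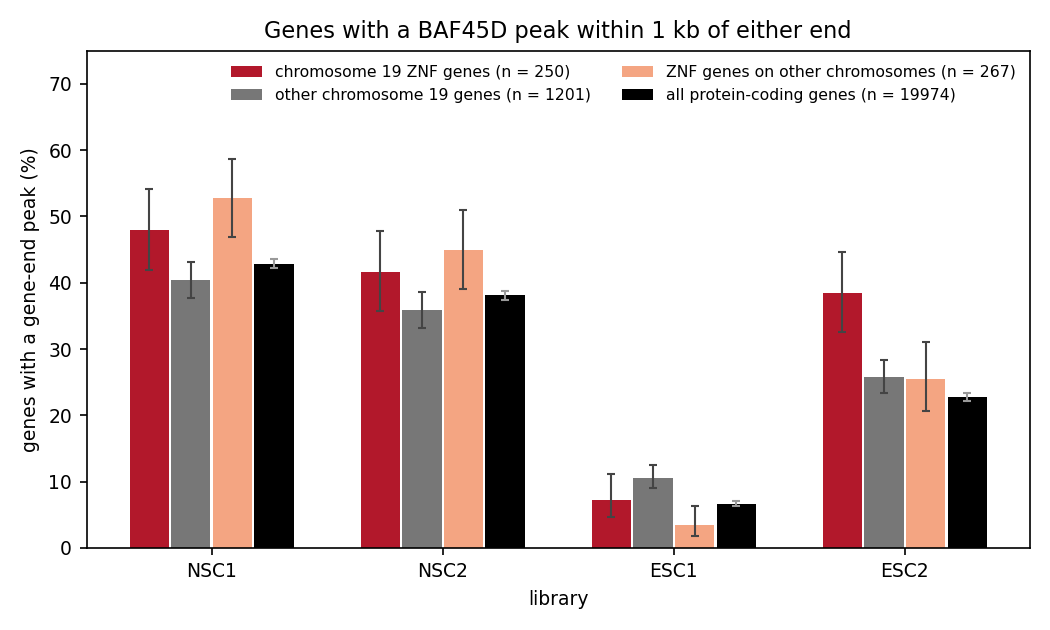
Percent of genes with a BAF45D peak within 1 kb of either gene end (vertical axis) in the 4 libraries (horizontal axis, NSC left of ESC), for the 250 members, the other genes of chromosome 19, the ZNF genes elsewhere and all protein-coding genes. Error bars are 95% Wilson intervals for counting error. The members' bar stands furthest above that of all genes in ESC2, at 38.4% against 22.8%.

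Per library, 112 ± 11.3 members were called in the NSC and 57 ± 55.2 in the ESC (mean ± SD, n = 2 each). The exact permutation test gave p = 0.333, the smallest two-sided p that 2 libraries against 2 allow. ESC1 and ESC2 lay further apart than the means of the cell types did. The difference also depended on list length: with the strongest 4204 peaks of each list, 17 members were called in NSC1, 17 in NSC2, 18 in ESC1 and 54 in ESC2. Over all protein-coding genes, that setting called 11.3%, 10.8%, 6.67% and 13.1%, beside 6.8%, 6.8%, 7.2% and 21.6% of the members. With −log10 q of at least 5 required, 33.6%, 24.8%, 2.4% and 26.4% of the members were called, beside 30.3%, 25.7%, 3.27% and 15.1% of all genes. At equal list length the members thus stood below the background in both NSC libraries and above it in ESC2, and no direction between the cell types is drawn here.

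All 18 members called in ESC1 were also called in ESC2. By pattern over the libraries, 30 members (12%) had gene-end peaks in both NSC libraries and neither ESC library, against 16.2% of all protein-coding genes. The converse pattern held for 1 member, ZNF587B, or 0.4% against 0.245%. Peaks in both NSC libraries and ESC2 but not ESC1 were found at 49 members (19.6% against 12.4%). Peaks in all 4 were found at 15 (6.0% against 5.88%). ESC2 alone called 18 members, 7.2% against 2.12% of all genes. There was none in any library at 101 members (40.4% against 51.1%), and 59.6% had a gene-end peak in some library, against 48.9% of all genes. At equal list length, 1 member was NSC-only, 7 were ESC-only, 5 had NSC and ESC2 peaks, 4 had peaks in all libraries and 187 in none, beside 2.2%, 1.26%, 2.23%, 3.7% and 80.8% of all genes. With −log10 q of at least 5, the same classes held 18, 0, 30, 5 and 142 members, beside 10.9%, 0.125%, 8.54%, 2.96% and 64.5% of all genes. Leaving out ESC2 moved the NSC-only count to 79. Leaving out ESC1 moved the count with peaks in every remaining library to 64 and the ESC-only count to 19. Shares over all genes without a library are not given here, so nothing particular to the members is read from these counts.

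**Figure D2:**
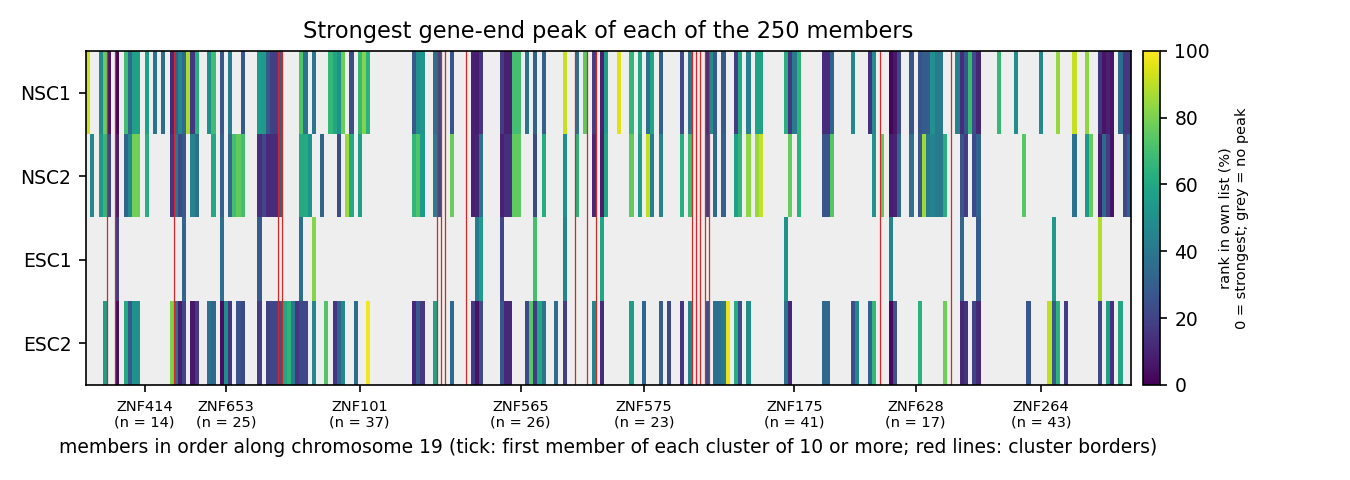
The strongest gene-end peak of each of the 250 members in order along chromosome 19 (horizontal axis) in the 4 libraries (rows, NSC above ESC). Colour gives the peak's rank by −log10 q in its own list in percent, with 0 the strongest, and grey means no peak passed the threshold. ESC1 is grey at all but 18 members.

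Among the 15 members with gene-end peaks in every library, peak strengths are given below as the authors' −log10 q. This is a measure within 1 list that was not compared between lists. ZNF414 had 30.7 in NSC1, 17.3 in NSC2, 8.77 in ESC1 and 27.2 in ESC2, which placed it in the top 17.7% of every list. ZNF524 had 36.1, 17.4, 3.97 and 34.4, the highest value of any member in NSC1 and in ESC2. Each value is that of the strongest gene-end peak in a library, and for ZNF524 these lay in different regions. The NSC values came from chr19:55599509-55600424 and the ESC values from chr19:55598849-55599362, which had peaks in every library. Both regions also lie at an end of another gene, FIZ1. ZNF414 and ZNF524 thus each had peaks in the strongest 7.77% of the NSC lists and of the ESC2 list. The strongest ZNF524 peak of ESC1 ranked at 45.7%. In this class 5 members lie in 1 cluster on the long arm, with ZNF566, ZNF850 and ZNF260 among them. ZNF566 had 18.6, 15.4, 4.49 and 22.8, and ZNF850 had 11.9, 15.7, 7.38 and 7.08. The ESC2 value of ZNF850 came from chr19:36771574-36772003, a region with a peak in ESC2 alone. Its other values came from chr19:36772326-36773253, which had peaks in every library. ZNF260, whose rodent counterpart is a regulator of cardiac genes, had 12.5, 6.61, 3.37 and 8.16. ZNF576 (16.8, 16.6, 3.16 and 12.8), ZNF548 (15.9, 7.38, 5.77 and 13.5) and ZNF460 (14.0, 8.48, 5.19 and 14.2) lie elsewhere on the long arm. The peak region of ZNF576 also lies at an end of another gene, IRGQ. ZNF878 (8.92, 7.55, 4.83 and 25.6), ZNF443 (4.86, 12.7, 5.77 and 9.99) and ZNF823 (7.29, 8.19, 5.31 and 8.84) belong to 1 cluster on the short arm. ZNF93, a KRAB protein known to repress LINE-1 elements, had 3.62, 4.27, 4.84 and 8.29. Its peaks ranked at 72.7% and 61.1% in the NSC lists, and at 36.3% in ESC1 and 22.6% in ESC2.

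Of the 30 members with gene-end peaks in NSC alone, ZNF557 had 19.8 in NSC1 and 9.78 in NSC2, and ZNF497 had 22 and 7.01. ZNF536, a brain-expressed zinc finger gene described as a negative regulator of neuronal differentiation, had 9.68 and 9.61. These values lay in the stronger 34.4% of both NSC lists for all 3 genes. The class covers gene ends only. Inside its body, ZNF536 also had peaks in ESC1 (strongest 1.81) and ESC2 (strongest 2.27). In the same class, ZNF225 (4.93) and ZNF611 (4.61) had a body peak in ESC2. ZNF324 (12.4 and 9.72) and ZNF446 (12.4 and 7.60) are neighbours. A single peak region between them, chr19:58475726-58476170, lies at the 3′ end of ZNF324 and the 5′ end of ZNF446, so part of their counts is shared. The NSC1 value of ZNF324 comes from this shared region. Its NSC2 value comes from another region, chr19:58466850-58467212, at its own 5′ end. Each of these regions had peaks in both NSC libraries. ZNF784 (10.2 and 7.18), ZNF787 (9.01 and 6.60), ZNF667 (8.37 and 6.14) and ZNF470 (6.27 and 6.16) come from the same cluster. The peaks of ZNF470 also lie at an end of ZNF470-DT. ZNF709 had 5.01 and 9.85. ZNF546 (6.84 and 4.04) and ZNF568 (3.80 and 3.30) were weaker, and the mouse counterpart of ZNF568 is known to silence a placental promoter of Igf2. The gene-end region of ZNF568 also lies at an end of ZNF829. ZNF587B, the reverse case, had 3.51 in ESC1 and 6.69 in ESC2, which were ranks of 53.8% and 29.4%.

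In the class with gene-end peaks in both NSC libraries and ESC2, ZNF584 was strongest, with 20.8 in NSC1, 20.9 in NSC2 and 11.7 in ESC2. Inside its body, ZNF584 also had peaks in NSC1 (12.8), NSC2 (3.43) and ESC1 (2.02). ZNF146, a protein made almost wholly of zinc fingers, had 17.5, 16.2 and 9.88, and ZNF865 had 19.4, 15.8 and 7.54. Pairs of divergent neighbours shared a peak here. ZNF790 and ZNF345 shared the region chr19:36850164-36851209 (17.5, 12.7 and 13.6), and ZNF791 and ZNF490 shared chr19:12610675-12611554 (11.1, 13.3 and 8.74). ZNF473, which acts in histone pre-mRNA processing, had 13.2, 10.5 and 7.65, in a region that also lies at an end of VRK3. ZNF564 (8.43, 13.9 and 9.60) and ZNF543 (8.70, 10.7 and 11.6) were the remaining members named in this class by rank. Members that led their cluster by number of libraries called, and then by mean rank, also belong to it. ZNF526 had 11.5, 14.1 and 4.54, ZNF333 had 8.31, 7.71 and 7.58, ZNF181 had 8.97, 3.22 and 5.86, and ZNF77 had 3.32, 3.91 and 3.78. The region of ZNF526 also lies at an end of DEDD2. ZNF816-ZNF321P had 14.2, 8.58 and 5.95, from peaks that it shares with ZNF816. Inside its body, ZNF816-ZNF321P also had a peak in ESC1 (5.69). ZNF91, a KRAB repressor of SVA elements, had 5.33, 3.53 and 6.97, with ranks of 50%, 72.4% and 28.0%.

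Other members with a described role varied. ZNF274, which recruits SETDB1 to the 3′ ends of zinc finger genes, was called in NSC2 alone, at 3.21. ZNF808, needed for human pancreas development, was called in NSC1 (4.26), ESC1 (3.71) and ESC2 (5.40). ZNF534, ZNF600 and ZNF676 had no gene-end peak in any library. The 18 members called in ESC2 alone ranged in −log10 q between 1.50 at ZNF350, a KRAB protein known as a partner of BRCA1, and 10.8 at ZNF253. ZNF417 (9.96) and ZNF233 (8.64) followed ZNF253, and these members are named after their values were seen.

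Where the strand was listed, for 219 members, nearly all gene-end peaks sat at the start of the gene. The 5′ end was called in 110 members in NSC1, 93 in NSC2, 16 in ESC1 and 84 in ESC2. The 3′ end was called in 3, 1, 0 and 0. Over all protein-coding genes with a strand, 43.9%, 39.0%, 6.77% and 23.2% were called at the 5′ end and 3.72%, 3.11%, 0.525% and 2.34% at the 3′ end. The members' shares at the 3′ end were 1.37%, 0.457%, 0.0% and 0.0%, against 7.04%, 6.11%, 1.55% and 5.28% of the other genes of chromosome 19. The members called there, named after their values were seen, were ZNF766, ZNF701 and ZNF324. Each of these regions also lies at an end of another gene. These genes are ZNF480 for ZNF766, ZNF137P and LOC137778871 for ZNF701, and ZNF446 for ZNF324. The median position of the summit relative to the start was -49 bp in NSC1, -57 bp in NSC2, -98 bp in ESC1 and -69.5 bp in ESC2, where a negative value is upstream. The summit lay within 300 bp of the start for 82.7%, 81.7%, 75% and 86.9% of the called members, against 73.3%, 74.0%, 66.0% and 69.4% of all called genes.

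**Figure D3:**
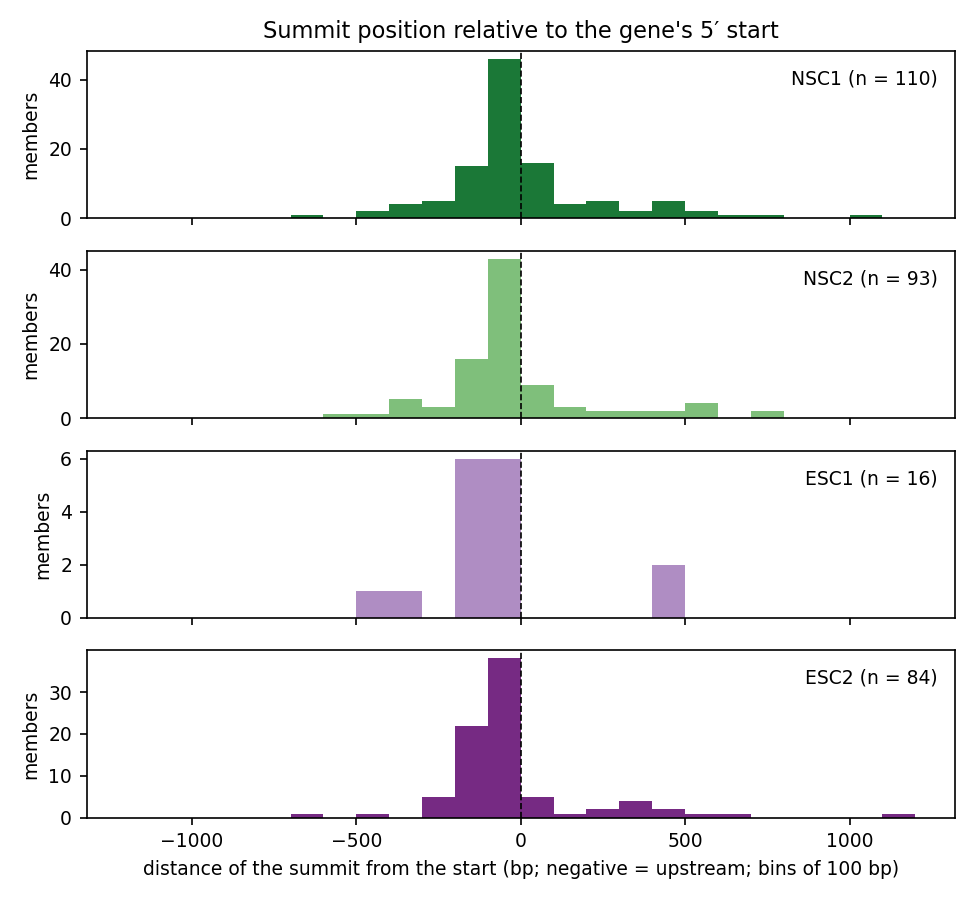
Number of members (vertical axis) by the distance of the strongest peak's summit from the gene's 5′ start in bp (horizontal axis, negative upstream, bins of 100 bp), with a panel for each library, NSC above ESC. In each library the fullest bins lie just upstream of the start, and 75% to 86.9% of summits lie within 300 bp.

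Away from the gene ends fewer members had peaks, and in NSC1, NSC2 and ESC2 most of these peaks lay at listed alternative starts. A peak overlapped the gene itself in 133 members in NSC1, 114 in NSC2, 24 in ESC1 and 98 in ESC2, a mean of 123.5 ± 13.4 for NSC and 61 ± 52.3 for ESC (SD over 2 libraries each, exact permutation p = 0.333). Over all protein-coding genes 51.3%, 45.8%, 8.75% and 28.0% had such a peak. A peak in the body and away from the ends was found in 33, 27, 11 and 28 members, or 13.2%, 10.8%, 4.4% and 11.2%, against 23.3%, 20.7%, 5.38% and 14.8% of all genes. The median length of the members was 23.3 kb and that of all protein-coding genes 24.2 kb. Of the distinct interior peaks, 27 of 32 in NSC1, 22 of 29 in NSC2, 5 of 10 in ESC1 and 18 of 26 in ESC2 lay at a start listed for the gene itself. The same share over all genes is not given here, so nothing particular to the members is read from these counts.

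ZNF444, a SCAN domain protein, had the strongest interior peaks by mean rank among members with such peaks in all 4 libraries, with −log10 q of 24.6 in NSC1, 20.6 in NSC2, 10.5 in ESC1 and 21.0 in ESC2. ZNF331, an imprinted gene, had 11.3, 10.8, 6.78 and 20.6 at the alternative start printed above. ZNF575 had 20.0, 19.1, 6.89 and 15.0, ZNF563 had 3.48, 5.54, 9.21 and 17.5, and ZNF442 had 7.53, 5.23, 2.51 and 10.2. For ZNF575 the strongest interior peak lay at different places in the NSC and ESC lists. It began at chr19:43533172 in NSC1, 43533168 in NSC2, 43533953 in ESC1 and 43533854 in ESC2. Both NSC libraries also had another peak that overlapped the ESC peaks. It lay at chr19:43533811-43534327 in NSC1 (14.9) and chr19:43533899-43534365 in NSC2 (13.2), so that place had peaks in all 4 libraries. These 5 members had interior peaks in all 4 libraries and no gene-end peak in any, so the count at gene ends misses them. When listed starts were added to the gene ends, 140 members were called in NSC1, 122 in NSC2, 24 in ESC1 and 110 in ESC2, and 168 in any library in place of 149. Under that setting 45.7%, 40.7%, 7.25% and 24.6% of all genes were called. In any library it called 67.2% of the members and 51.9% of all genes.

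Each peak was also counted once whatever the number of members it touched. There were 157 distinct peaks at members in NSC1, 135 in NSC2, 30 in ESC1 and 126 in ESC2, which were 16.8%, 16.6%, 11.5% and 16.7% of the peaks of chromosome 19. The mean was 146 ± 15.6 for NSC and 78 ± 67.9 for ESC (SD over 2 libraries each, exact permutation p = 0.333). Merged over libraries, the gene-end peaks formed 166 regions, of which 11 lay at the ends of 2 members, 8 at the end of another coding gene and 34 at the end of a long noncoding RNA gene. By region, 28 were NSC-only, 43 had both NSC libraries and ESC2, 15 had all 4 and 27 had ESC2 alone. Merged regions over all genes were not counted here, so nothing particular to the members is read from the region counts. The median rank of the members' gene-end peaks was 39.6% in NSC1, 44.8% in NSC2, 45.6% in ESC1 and 30.9% in ESC2. The peaks at the ends of all protein-coding genes had medians of 38.7%, 39.5%, 37.8% and 31.2%.

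Along the chromosome, members separated by no more than 500 kb were taken as a cluster. This gave 20 clusters, of which 8 with at least 10 members held 226 of the 250 members and 7 were single genes. Each of these 8 clusters is named below by its outermost members. The cluster from ZNF653 to ZNF791 (11.5 to 12.6 Mb, 25 members) had the highest share called in any library, 76.0%, with 16 members in NSC1, 16 in NSC2, 3 in ESC1 and 16 in ESC2. The cluster from ZNF175 to ZNF331 (51.6 to 53.6 Mb, 41 members) had the lowest share called in any library, 51.2%, with 18, 13, 1 and 15. Within single libraries other clusters were higher or lower: the share in NSC2 was 70.6% between ZNF628 and ZNF835, and the share in ESC2 was 23.5% there. The difference between these extremes is a description of 8 clusters on 1 chromosome and was not tested.

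The NSC and ESC2 counts did not run in parallel over the clusters. In the cluster from ZNF628 to ZNF835 (55.5 to 56.7 Mb, 17 members), 10 members were called in NSC1, 12 in NSC2, 1 in ESC1 and 4 in ESC2, and 7 were NSC-only. In the cluster from ZNF101 to ZNF254 (19.7 to 24.1 Mb, 37 members), 15, 12, 2 and 17 were called, and 6 of the 18 members called in ESC2 alone lay there. The first of these had more NSC calls than ESC2 calls and the second had slightly more in ESC2. Peaks were also sparse in the span of the second, at 4.71 per Mb in NSC1, 4.03 in NSC2, 1.12 in ESC1 and 6.05 in ESC2. The first had 20.1, 18.4, 2.51 and 10.9 per Mb. The cluster from ZNF565 to ZNF573 (26 members) had 12, 11, 5 and 13 called, again slightly more in ESC2, and held the most ESC1 members. The cluster from ZNF264 to ZNF446 at the end of the long arm (43 members) had 19, 14, 4 and 13. The clusters from ZNF414 to ZNF846 (14 members) and from ZNF575 to ZNF180 (23 members) had 9, 7, 1 and 6 and 10, 9, 1 and 7.

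**Figure D4:**
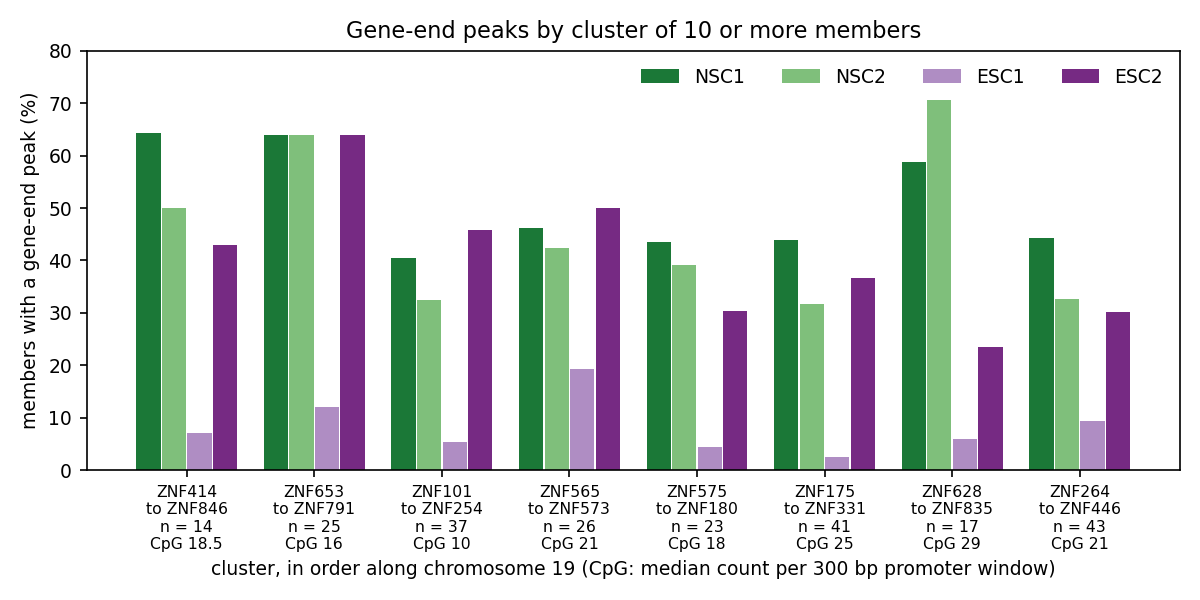
Percent of members with a gene-end peak (vertical axis) in each library (bars, NSC left of ESC) for the 8 clusters of at least 10 members in order along chromosome 19 (horizontal axis), with the median CpG count of the promoter windows under each cluster. ESC2 stands above both NSC libraries in the clusters from ZNF101 to ZNF254 (median CpG 10) and from ZNF565 to ZNF573 (median CpG 21), and well below them in that from ZNF628 to ZNF835 (median CpG 29).

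The clusters from ZNF101 to ZNF254 and from ZNF628 to ZNF835 stood at the extremes of promoter CpG content among the 8. Promoter windows were listed for 219 members, and for 190 of these the start lay within 1 kb of the 5′ end of the gene. The median CpG count per window was 10 in the cluster from ZNF101 to ZNF254 and 29 in that from ZNF628 to ZNF835, against 20 over all members and 22 over all protein-coding genes. An exact run of 25 bases was shared with a window elsewhere in the same cluster by 26 of the 29 windows of the first of these. It was shared by none of the 15 windows of the second, and by 68 of the 219 windows in all, each time within a cluster. The input of the peak calls was named as unique reads, per the file headers, and the part of shared sequence in the counts was not tested.

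The share called also varied with CpG content. Among members with 10 to 19 CpG dinucleotides, 44.2% were called in NSC1, 31.4% in NSC2, 8.14% in ESC1 and 45.3% in ESC2, against 47.2%, 40.7%, 11.7% and 35.1% of all genes of that range. Among members with 20 to 29, 58.4%, 49.4%, 10.1% and 39.3% were called, against 63.9%, 57.5%, 13% and 39.4%. Among the 28 members with 30 or more, 53.6%, 53.6%, 0.0% and 25% were called, against 58.5%, 52.5%, 4.5% and 21.1%. Within the middle ranges the members were therefore below all genes in both NSC libraries, although their share over all ranges was above. Only 16 of the 219 members had fewer than 10, beside 4294 of the 15813 genes, and in that range 31.2%, 43.8%, 0.0% and 18.8% of these members were called, against 12.9%, 11.2%, 1.72% and 7.82% of all genes. With so few CpG dinucleotides the members thus stood above all genes in both NSC libraries and in ESC2, over 16 members. The median CpG count was 26 in NSC-only members, 22 in those with NSC and ESC2 peaks, 20 in those with peaks in all libraries, 17.5 in those called in ESC2 alone and 19 in those with none. Over all genes the same classes had medians of 30, 25, 23, 17 and 11.

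**Figure D5:**
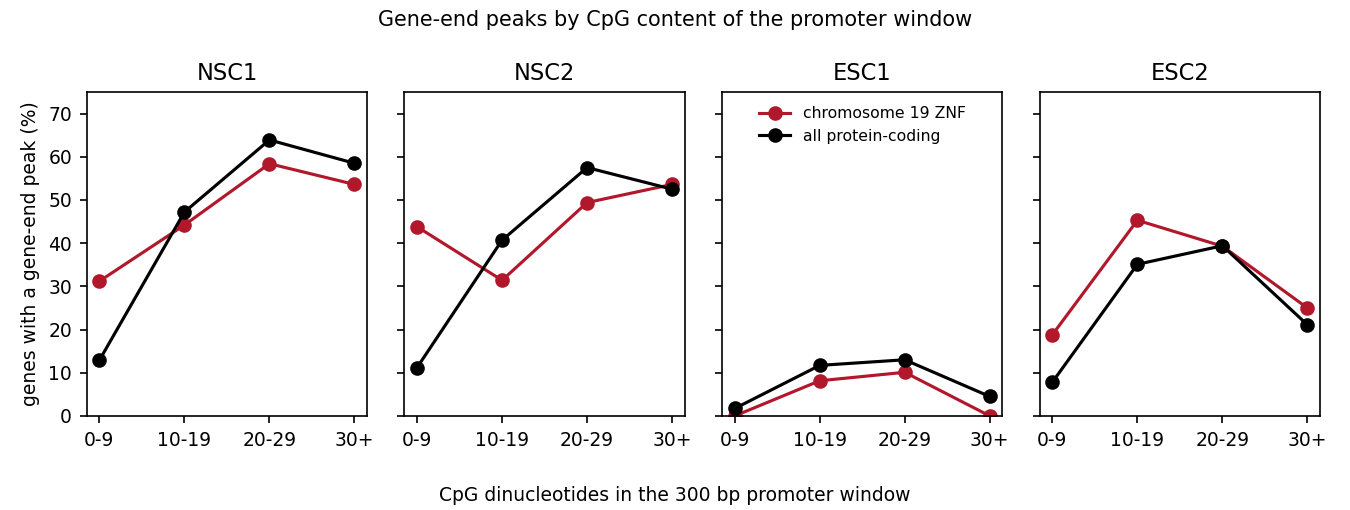
Percent of genes with a gene-end peak (vertical axis) by the number of CpG dinucleotides in the promoter window of 300 bp (horizontal axis) in each library, NSC left of ESC, for the members (red) and all protein-coding genes (black). In the range of 20 to 29 the members lie below all genes in NSC1 (58.4% against 63.9%) and level with them in ESC2 (39.3% against 39.4%).

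A set of 12 short motifs, chosen with the data known, was searched in the windows on both strands. CCGGAAG was found in 99 of the 219 members (45.2%), in 33.0% of ZNF genes elsewhere, in 12.8% of the other genes of chromosome 19 and in 14.1% of all protein-coding genes. GGAAGT, which shares GGAAG with it, was found in 40.2% of members and 24.7% of all genes. CACTTCCG, which overlaps both when read on the other strand, was found in 16.0% and 5.91%, and CGAGAG in 22.8% and 15.8%. All 4 of these were thus more frequent among the members than over all genes. Shares of members and of all genes for the others follow in that order. GGGCGGGG was found in 35.6% and 31.3%, GCGCAGGC in 11.9% and 8.63%, AAGATGGC in 6.39% and 3.86%, and GTGGCCG in 4.11% and 8.03%. GCATGCGC was found in 4.57% and 4.27%, TTTCCGGG in 2.74% and 1.88%, ACTACAAT in 1.37% and 0.689%, and CAGCATGC in 0.913% and 0.961%. Members with CCGGAAG were called in 50.5% in NSC1, 35.4% in NSC2, 5.05% in ESC1 and 39.4% in ESC2. Members without it were called in 50%, 48.3%, 9.17% and 37.5%. Over all protein-coding genes the shares were 68.8%, 59.7%, 10.2% and 37.2% with it and 41.8%, 37.4%, 6.68% and 22.5% without it. Genes with the motif were thus called more often in every library over all genes, and over the members the order differed between libraries. Windows with the motif also held more CpG dinucleotides, a median of 26 against 20 over all genes and 21 against 19 over the members. The share called varied with CpG content, and the motif apart from CpG content was not tested.

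A list of 28 genes held cofactors of KRAB zinc finger proteins, together with RBAK and ZFP57, which are such proteins themselves. Of these 28, 17 were called at a gene end in NSC1, 18 in NSC2, 4 in ESC1 and 10 in ESC2. The shares over all genes were 42.8%, 38.1%, 6.67% and 22.8%. TRIM28, the corepressor that KRAB domains bind, lies beyond the last cluster of chromosome 19 and had −log10 q of 29.6, 22.7, 2.37 and 13.7. SETDB1 had 10.7, 8.71, 8.40 and 10.3, and the HP1 genes CBX3 (37.8, 44.9, 6.04 and 17.8) and CBX5 (39.2, 42.4, 7.74 and 30.8) also had peaks in all libraries. NSC-only gene-end peaks were found at 7, against 16.2% of all genes, namely DNMT1, DNMT3A, HDAC2, MORC2, MPHOSPH8, PPHLN1 and SUV39H1. No gene-end peak in any library was found at 8, against 51.1% of all genes, with HDAC1, UHRF1 and ATRX among them. Of 21 other classical zinc finger genes of chromosome 19 with symbols outside the rule, 6, 5, 1 and 3 were called, against the same shares over all genes as the list of 28.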

How the data were processed

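BAF45D CUT&Tag peak lists of 2 NSC and 2 ESC libraries were used. The submitters' processing notes name FastQC, Trimmomatic, BWA (0.7.12) and the build hg38. Per the file headers, MACS2 2.1.0.20150420 called peaks in each library on its own, on unique and deduplicated reads, without a control, at a q threshold of 0.05. The shift was -100 bp, the extension 200 bp and the regional background 10000 bp. For each peak the authors deposited a −log10 p and a −log10 q value, a fold enrichment (a ratio to the local background) and a pileup signal at the summit. These are values of the peak within 1 list and served to describe, rank or filter.

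Entries with the same start and end were joined. Genes and promoter windows came from RefSeq tables of GRCh38.p14, and 31 members had no promoter entry. A gene was called when a peak overlapped a window by at least 1 bp. Cell types were compared with a two-sided exact permutation test over libraries, and 95% Wilson intervals cover counting error only. Named members were up to 10 per class by mean rank of −log10 q, up to 5 with interior peaks, the leading member of each cluster (called in the most libraries, then by mean rank) and a fixed set with described roles. Other windows, a stricter q, equal list length, summits, omission of hyphenated symbols and of each library, the replicate block and other cluster gaps were tried. Listed transcript starts, the motifs, the CpG ranges and the shared runs were added after the data were seen. The members and lists were chosen with earlier results of these data known. Scoring was tested on simulated peaks. Python 3.11.15, pandas 2.3.3, numpy 2.4.6, scipy 1.17.1 and matplotlib 3.10.9 were used.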

Additional observations from a re-analysis of the deposited data

How the results depend on the processing

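The 3 counts per library that were compared between cell types (members with gene-end peaks, members with gene-body peaks and distinct peaks) kept NSC above ESC under every setting tried but equal list length, where NSC minus ESC was -19, -24 and -29.5. That setting also gave 1 NSC-only member, 7 ESC-only, 5 with NSC and ESC2, 4 with all libraries, 187 with none, and 11.8% and 52.0% called in any library in the lowest and highest clusters. With −log10 q of at least 5, these were 18, 0, 30 and 5 members, and 34.8% in the lowest cluster. Leaving out each library in turn, NSC minus ESC ranged from 16 to 94 members at gene ends, 25.5 to 99.5 at bodies and 20 to 116 distinct peaks. The lowest values came without ESC1 and the highest without ESC2. The counts ranged from 30 to 79 NSC-only, 1 to 19 ESC-only and 15 to 64 with all libraries. These ranges are given without those over all genes, and nothing particular to the members is read from them. The cause of these changes was not tested. With the replicate block, differences of 55, 62.5 and 68 each had an exact p of 0.5, the smallest that the paired test allows, and nothing in the labels ties libraries of the same number. Of the 51 named members, 32 changed class at equal list length and 15 at the stricter q. Tag depth ran against list length, so a place without a peak sets no limit on binding.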
